A study of Mus musculus with 21 samples.

Results

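The genes described here are 9 members of the homeostatic microglia signature, Tmem119, Sparc, Olfml3, Selplg, Slc2a5, Ecscr, Golm1, Crybb1 and Ltc4s. They were taken by gene symbol from a table of 57180 mouse genes, and all 9 were present and abundant enough to be tested. The signature is the set of genes that resting microglia, the macrophages of the brain, express far above other macrophages. It is maintained by the brain environment, in part through TGF-beta, and it is often used to ask how far cells of another origin have become like microglia. The 9 genes are drawn from that signature but encode unrelated proteins: surface molecules, secreted matrix proteins, a sugar transporter, a Golgi protein, a lens crystallin and an enzyme of lipid mediator synthesis.

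RNA-seq was performed on cells sorted from mouse brain in 21 libraries, each labelled a biological replicate. Transplanted microglia (MG) and transplanted monocyte-derived microglia (MLC) both carried the genotype Osb-GFP. Microglia of mice without a transplant (NoTx) carried the genotype CX3CR1-CreER+/-; CSF1R fl/fl, in which Cre is placed under Cx3cr1, a gene of microglia and monocytes. Whether Cre had been induced in the NoTx mice, and the age and genotype of the hosts, are not given in the labels.

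The saline groups held 3 MG, 3 MLC and 2 NoTx libraries, all from batch 2. The seizure groups held 4 MG, 6 MLC and 3 NoTx libraries, all from batch 1, of cells taken 5 days after seizures that kainic acid, which activates glutamate receptors, had brought on. Treatment and batch therefore cannot be told apart, nor can genotype and transplantation in any comparison with NoTx. Of the 6 MLC libraries after seizure, 2 have 11b in their names and share a code with another MLC library. Whether libraries that share a code come from the same animal is not given in the labels. Levels are given as CPM, counts-per-million values scaled by the trimmed mean of M values (TMM). Xist, the RNA of the inactive X chromosome, stood at 187 to 421 CPM in every MG library. It stood at 0.452 to 7.48 CPM in every MLC library. Y-linked genes together stood at 0.777 to 222 CPM in MG and at 391 to 1428 CPM in MLC. Sex and cell origin therefore cannot be told apart between MG and MLC either, although none of the 9 genes is on a sex chromosome. In NoTx, Xist stood at 0.52 and 0.928 CPM after saline and at 152, 2.28 and 297 CPM after seizure. Estimated counts per library summed to 36.5 to 50.3 M after saline and 6.57 to 73.8 M after seizure. Monocytes before transplantation were not analysed here, so a level in MLC is the level found in the brain and not a measured gain.

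For 6 of the 9 genes a promoter sequence of the RefSeq table (build GRCm38.p6) was used, and 4 are shown because these genes span the range of levels kept by MLC, from the largest share of the MG level (Olfml3) to the smallest (Slc2a5). Each is the 250 bases before the transcription start, 5′ to 3′ on the strand of the gene. Capitals mark the SMAD box CAGAC, bound by the transcription factors downstream of TGF-beta, or its reverse complement GTCTG.
Olfml3, chr3:103738002-103738251, minus strand: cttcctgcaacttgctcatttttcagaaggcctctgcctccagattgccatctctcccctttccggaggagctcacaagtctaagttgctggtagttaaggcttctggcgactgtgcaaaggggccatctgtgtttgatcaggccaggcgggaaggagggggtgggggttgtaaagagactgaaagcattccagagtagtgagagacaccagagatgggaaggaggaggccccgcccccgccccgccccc
Crybb1, chr5:112255570-112255819, plus strand: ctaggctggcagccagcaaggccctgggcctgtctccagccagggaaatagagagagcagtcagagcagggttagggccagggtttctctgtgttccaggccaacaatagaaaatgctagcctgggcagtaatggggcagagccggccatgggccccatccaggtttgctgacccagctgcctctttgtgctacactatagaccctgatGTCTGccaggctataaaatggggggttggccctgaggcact
Sparc, chr11:55420081-55420330, minus strand: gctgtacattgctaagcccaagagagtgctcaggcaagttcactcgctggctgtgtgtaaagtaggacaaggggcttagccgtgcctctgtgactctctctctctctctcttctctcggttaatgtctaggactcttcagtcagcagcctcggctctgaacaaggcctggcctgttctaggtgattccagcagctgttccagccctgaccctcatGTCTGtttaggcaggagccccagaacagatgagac
Slc2a5, chr4:150119094-150119343, plus strand: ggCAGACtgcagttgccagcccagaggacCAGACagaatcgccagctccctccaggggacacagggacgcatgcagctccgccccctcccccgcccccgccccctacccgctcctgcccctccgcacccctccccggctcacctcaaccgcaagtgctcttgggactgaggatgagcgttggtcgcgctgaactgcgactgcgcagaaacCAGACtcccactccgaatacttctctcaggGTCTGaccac

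Searched on both strands, CAGAC occurred 4 times in the Slc2a5 window, 1 time each in those of Sparc, Crybb1 and Golm1, and not in those of Olfml3 and Ltc4s. The same letters were found in 42.2% of 32851 mouse promoter windows. The ETS core GGAAGT, bound by the family of the macrophage factor PU.1, occurred 1 time each in the Golm1 and Ltc4s windows and in 19.7% of all promoters. The MEF2 box CTANNNNTAG was in none of the 6 windows and in 3.2% of all promoters. These matches describe the letters only.

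Every one of the 9 genes had a lower mean in MLC than in MG, after saline and after seizure, and the genes fell into a wide range of levels. MLC held 34.3% of the MG mean of Olfml3 after saline, 29.8% of Tmem119, 26% of Ltc4s and 20.6% of Golm1. They held 9.91% of Selplg, 6.85% of Crybb1 and 6.07% of Sparc, but 1.99% of Ecscr and 0.871% of Slc2a5. After seizure the shares were 37.2% for Olfml3, 22.4% for Tmem119, 20.7% for Ltc4s and 17.9% for Golm1, then 8.73% for Sparc, 7.51% for Selplg, 5.02% for Crybb1, 2.34% for Ecscr and 1.82% for Slc2a5. The same 4 genes were thus at the top and the same pair at the bottom under both conditions. In bulk libraries such as these, fewer cells with a transcript and less transcript per cell cannot be told apart.

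In the test, 8 of the 9 genes were lower in MLC than in MG after saline (edgeR quasi-likelihood test, Benjamini-Hochberg adjusted p under 0.05 over all genes tested), against 0.806% of the 18867 genes tested that were lower. The median log2 fold change of the 9 was -3.34, beside 0.00 over all genes. After seizure 8 of 9 were lower again, where 3.37% of all genes were, with a median of -3.52 beside 0.00. Tmem119 was the gene that did not pass either time. The saline count fell to 5 without MLC replicate 1 and to 4 without MLC replicate 2 (Olfml3, Selplg and Golm1 were lost in both, and Ltc4s in the latter). The MLC libraries lay below all MG libraries for 9 of 9 genes after saline (12.4% of all genes) and for 8 of 9 after seizure (2.96% of all genes).

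Markers of monocyte-derived macrophages and of macrophages at the brain's borders went the other way. Of 18 genes of monocyte-derived and border macrophages, 9 were higher in MLC than in MG after saline and 12 after seizure, and none was lower. The share of all genes called higher is not given here as a background. Their summed level was 9467 to 71069 CPM in MLC and 437 to 850 CPM in MG after saline, and 14350 to 56317 CPM and 482 to 765 CPM after seizure. Among them were the chemokine Pf4, whose log2 fold change was 8.63 (SE 0.77, adjusted p = 2.8e-07) after saline and 8.45 (SE 0.67, adjusted p = 1.4e-08) after seizure, and Apoe, the lipid carrier, at 6.78 (SE 1.18, adjusted p = 0.0014) and 6.23 (SE 0.98, adjusted p = 0.00022). All 10 defining macrophage markers, Csf1r and Spi1 among them, were detected in every library. Of these 10, only Itgam, an integrin of myeloid cells, passed against MG, with -1.40 (SE 0.30, adjusted p = 0.0064) after seizure. The part of these markers in the results for the 9 genes was not tested. The lists of these markers were, like the members, chosen with earlier results of these data known.

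Summed, the 9 genes took up 2.21% to 2.66% of all counts in MG after saline, 1.39% to 1.88% in NoTx and 0.299% to 0.752% in MLC. After seizure the sums were 0.817% to 2.04% in MG, 1% to 2.68% in NoTx and 0.103% to 0.453% in MLC. The highest MLC library stayed below the lowest library of either microglia group under both conditions. Scaled to transcript length, even the reduced MLC levels of the upper genes were high: the mean Tmem119 level in MLC after saline, 1019 CPM per kb, exceeded that of 99.8% of the 17992 tested genes with a known length. The Slc2a5 level there, 4.15 CPM per kb, exceeded that of 59.9% of genes, while in MG it exceeded 99.5%.

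**Figure D1:**
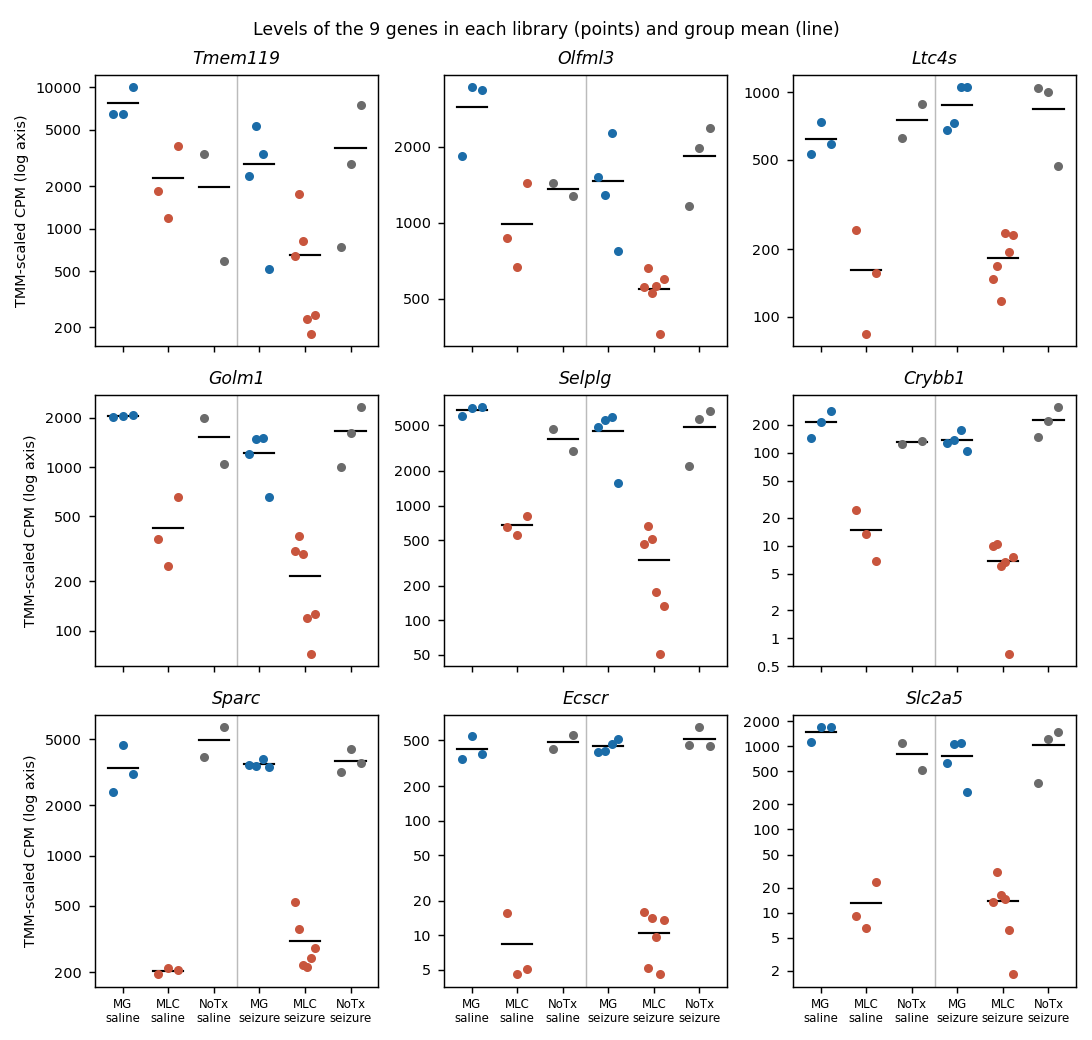
TMM-scaled CPM (y, log axis, a separate range for each gene) of the 9 genes in each of the 21 libraries (points), with the mean of each group as a line, after saline (left of the grey line) and after seizure (right). Panels run from the 4 genes of which MLC held the largest shares of the MG level, Tmem119, Olfml3, Ltc4s and Golm1, to Ecscr and Slc2a5, whose MLC libraries sit far below every microglia library.

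Among the surface molecules, Tmem119, a transmembrane protein used as a marker that separates microglia from other brain macrophages, was present in all MLC libraries. After saline the Tmem119 level was 6491, 6465 and 10047 CPM in the 3 MG libraries, 1848, 1180 and 3824 CPM in the 3 MLC libraries and 3375 and 586 CPM in the 2 NoTx libraries. Every MLC library lay below every MG library, whereas MLC and NoTx overlapped. After seizure Tmem119 stood at 2345, 5303, 3364 and 518 CPM in MG, between 180 and 1763 CPM with a median of 442 in the 6 MLC libraries, and at 736, 2848 and 7540 CPM in NoTx. The groups overlapped in that condition, because MG replicate 4 and NoTx replicate 1 stood within the MLC range.

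Tmem119 had the widest spread of the 9 genes, and its difference between MLC and MG did not pass the test. The log2 fold change was -1.75 (SE 0.88, adjusted p = 0.66) after saline, with a 95% interval from -3.46 to -0.03, and -2.16 (SE 0.67, adjusted p = 0.059) after seizure. It passed in 2 of 19 other fits after saline, one of them limma-voom (adjusted p = 0.042). After seizure it passed in 6 of 23, among them those without MG replicate 4 (0.029) or MLC replicate 2 (0.015) and DESeq2 (0.035). Against NoTx the Tmem119 value was 0.21 (SE 0.96, adjusted p = 1) after saline and -2.52 (SE 0.71, adjusted p = 0.036) after seizure. The call after seizure was lost in 13 of 22 other fits, among them those without any 1 of MLC replicates 1, 3, 4, 5 and 6 or NoTx replicates 2 and 3 (adjusted p 0.052 to 0.3), and the saline value turned to -0.57 without NoTx replicate 2.

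Selplg encodes P-selectin glycoprotein ligand 1, through which leukocytes bind selectins on endothelium. After saline its level was 6062, 7025 and 7202 CPM in MG, 649, 550 and 811 CPM in MLC and 4621 and 2953 CPM in NoTx. After seizure Selplg stood at 4804, 5541, 5868 and 1559 CPM in MG, between 50.9 and 664 CPM with a median of 321 in MLC, and at 2209, 5629 and 6636 CPM in NoTx. Every MLC library was below every microglia library of the same condition. In MLC Selplg fell by 3.34 on the log2 scale against MG (SE 0.69, adjusted p = 0.0085) after saline and fell by 3.74 (SE 0.52, adjusted p = 4.3e-05) after seizure. The saline call was lost without MLC replicate 1 (adjusted p = 0.065) or 2 (0.08). Against NoTx the value was -2.50 after saline (SE 0.70, adjusted p = 0.099), and Selplg fell by 3.85 after seizure (SE 0.54, adjusted p = 5.3e-05).

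Slc2a5 encodes GLUT5, the transporter of fructose, and was the gene of which MLC held the smallest share of the MG level. The Slc2a5 level after saline was 1129, 1680 and 1692 CPM in MG, 9.1, 6.58 and 23.5 CPM in MLC and 1089 and 524 CPM in NoTx. After seizure Slc2a5 stood at 624, 1066, 1103 and 279 CPM in MG, between 1.83 and 31 CPM with a median of 14.1 in MLC, and at 357, 1221 and 1496 CPM in NoTx. The highest MLC library was below every microglia library, and the lowest MLC value rested on 31 counts. In MLC Slc2a5 fell by 6.84 on the log2 scale against MG (SE 0.88, adjusted p = 4.3e-05) after saline and fell by 5.79 (SE 0.61, adjusted p = 1.2e-06) after seizure. It passed in each of the 19 other fits of the saline comparison and the 23 of the seizure comparison.

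Ecscr encodes a small surface protein first described in endothelium, where it acts in migration and apoptosis. In the saline libraries Ecscr was at 345, 550 and 378 CPM in MG, 15.7, 4.56 and 5.1 CPM in MLC and 417 and 560 CPM in NoTx. After seizure Ecscr stood at 400, 408, 466 and 517 CPM in MG, between 4.6 and 16 CPM with a median of 11.6 in MLC, and at 456, 653 and 443 CPM in NoTx. All microglia libraries lay close together and all MLC libraries far below them. Exons of Ecscr share 62 bases with a protein-coding gene on the other strand, and its counts were not whole in 13 libraries. In MLC Ecscr fell by 5.65 on the log2 scale against MG (SE 0.55, adjusted p = 6.3e-07) after saline and fell by 5.41 (SE 0.39, adjusted p = 5.2e-09) after seizure, and it passed in all 19 and 23 other fits.

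Because Ecscr is also an endothelial gene, 18 markers of endothelium and mural cells were read beside it. Their summed level was 17.9 to 28 CPM in MG after saline and 4.41 to 6.34 CPM in MLC. After seizure the sums were 4.35 to 62.4 CPM and 1.21 to 7.33 CPM. Of the 18 markers, 10 were at 0 in all MG libraries after saline and 13 after seizure, claudin-5 (Cldn5), Tek and Esam among them both times. Pecam1, Cdh5, Flt1, Kdr and Vwf, also endothelial genes, were above 0 in at least 1 MG library of each condition. The sum after saline was thus higher in MG than in MLC, as Ecscr was, and the part of these markers in the result was not tested. Pecam1, an adhesion molecule of endothelium and myeloid cells, made up most of that sum, with 18.3 ± 1.69 CPM (SD, n = 3) in MG and 1.53 ± 2.09 CPM (n = 3) in MLC after saline.

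Of the secreted proteins, Sparc, a matricellular glycoprotein that binds collagen, was the most even of the 9 genes. Sparc after saline measured 2423, 4583 and 3074 CPM in MG, 195, 211 and 206 CPM in MLC and 3924 and 5893 CPM in NoTx. After seizure Sparc stood at 3502, 3464, 3815 and 3389 CPM in MG, between 216 and 530 CPM with a median of 263 in MLC, and at 3185, 4359 and 3613 CPM in NoTx. The MLC libraries were below all microglia libraries, and the MLC libraries after seizure were all above those after saline. In MLC Sparc fell by 4.04 on the log2 scale against MG (SE 0.36, adjusted p = 2.3e-07) after saline and fell by 3.52 (SE 0.26, adjusted p = 5.2e-09) after seizure, and it passed in all 19 and 23 other fits.

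Astrocytes also express Sparc. The 12 astrocyte markers summed to 450 to 525 CPM in MG and 47.2 to 71.2 CPM in MLC after saline, and to 338 to 586 CPM and 7.14 to 205 CPM after seizure. Of these markers, Slc1a3, a glutamate transporter, made up most of the sum in MG, with 469 ± 37.3 CPM (SD, n = 3) after saline against 8.73 ± 9.03 CPM (n = 3) in MLC. The other 11 markers summed to 23.5 to 29.6 CPM in MG and to 28.2 to 69.1 CPM in MLC after saline, and to 12.6 to 58.3 CPM and 4.98 to 197 CPM after seizure. The whole list was thus higher in every MG library than in any MLC library of the same condition, and without Slc1a3 the groups overlapped. The part of these markers in the Sparc result was not tested.

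Olfml3, a secreted olfactomedin-like protein, was the gene of which MLC held the largest share of the MG level. After saline its level was 1844, 3446 and 3354 CPM in MG, 866, 666 and 1435 CPM in MLC and 1441 and 1278 CPM in NoTx. After seizure Olfml3 stood at 1519, 1291, 2270 and 776 CPM in MG, between 363 and 662 CPM with a median of 560 in MLC, and at 1161, 1981 and 2364 CPM in NoTx. MLC lay below MG under both conditions, but after saline MLC and NoTx overlapped, through the MLC library at 1435 CPM. In MLC Olfml3 fell by 1.54 on the log2 scale against MG (SE 0.38, adjusted p = 0.035) after saline and fell by 1.42 (SE 0.29, adjusted p = 0.0032) after seizure. The saline call was lost in 7 of 19 other fits, among them those without MG replicate 2 (adjusted p = 0.18), MG replicate 3 (0.16), MLC replicate 1 (0.2) or MLC replicate 2 (0.28). Against NoTx after saline the Olfml3 value was -0.46 (SE 0.41, adjusted p = 1), with a 95% interval from -1.26 to 0.34.

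Ltc4s encodes leukotriene C4 synthase, which conjugates leukotriene A4 to glutathione. In the saline libraries Ltc4s was at 531, 741 and 587 CPM in MG, 243, 83.8 and 156 CPM in MLC and 623 and 883 CPM in NoTx. After seizure Ltc4s stood at 677, 733, 1057 and 1053 CPM in MG, between 117 and 236 CPM with a median of 181 in MLC, and at 1045, 1002 and 470 CPM in NoTx. Every MLC library was below every microglia library. In MLC Ltc4s fell by 1.94 on the log2 scale against MG (SE 0.38, adjusted p = 0.0053) after saline and fell by 2.27 (SE 0.29, adjusted p = 1.7e-05) after seizure. The saline call was lost without MLC replicate 2 (adjusted p = 0.053) and with an offset for GC content (0.29). Exons of Ltc4s share 268 bases with an antisense transcript in the GENCODE M21 annotation, and its counts were not whole in all 21 libraries. Whether reads from the other strand were counted was not tested.

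Golm1 encodes a membrane protein of the Golgi apparatus. Golm1 after saline measured 2022, 2059 and 2094 CPM in MG, 364, 248 and 661 CPM in MLC and 1996 and 1051 CPM in NoTx. After seizure Golm1 stood at 1208, 1490, 1505 and 655 CPM in MG, between 71.9 and 377 CPM with a median of 211 in MLC, and at 1008, 1628 and 2332 CPM in NoTx. The MG libraries after saline were nearly identical, and all MLC libraries lay below all microglia libraries of the same condition. In MLC Golm1 fell by 2.28 on the log2 scale against MG (SE 0.53, adjusted p = 0.025) after saline and fell by 2.49 (SE 0.40, adjusted p = 0.00029) after seizure. The saline call was lost in 6 of 19 other fits, among them those without any 1 of MG replicates 1 to 3 or MLC replicates 1 and 2 (adjusted p 0.072 to 0.2). Golm1 shares 1297 exon bases with Naa35 on the other strand, and its counts too were not whole in all 21 libraries.

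Crybb1 encodes a beta-crystallin, a structural protein of the eye lens that microglia also express, and had the lowest CPM of the 9 genes in each group of microglia. The Crybb1 level after saline was 143, 216 and 285 CPM in MG, 24.1, 13.2 and 6.84 CPM in MLC and 126 and 135 CPM in NoTx. After seizure Crybb1 stood at 128, 138, 178 and 106 CPM in MG, between 0.677 and 10.5 CPM with a median of 7.11 in MLC, and at 147, 223 and 312 CPM in NoTx. Every MLC library was below every microglia library, and the lowest of them, MLC replicate 5 after seizure, rested on 5 counts. In MLC Crybb1 fell by 3.87 on the log2 scale against MG (SE 0.62, adjusted p = 0.00064) after saline and fell by 4.32 (SE 0.47, adjusted p = 1.7e-06) after seizure, and it passed in all 19 and 23 other fits.

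**Figure D2:**
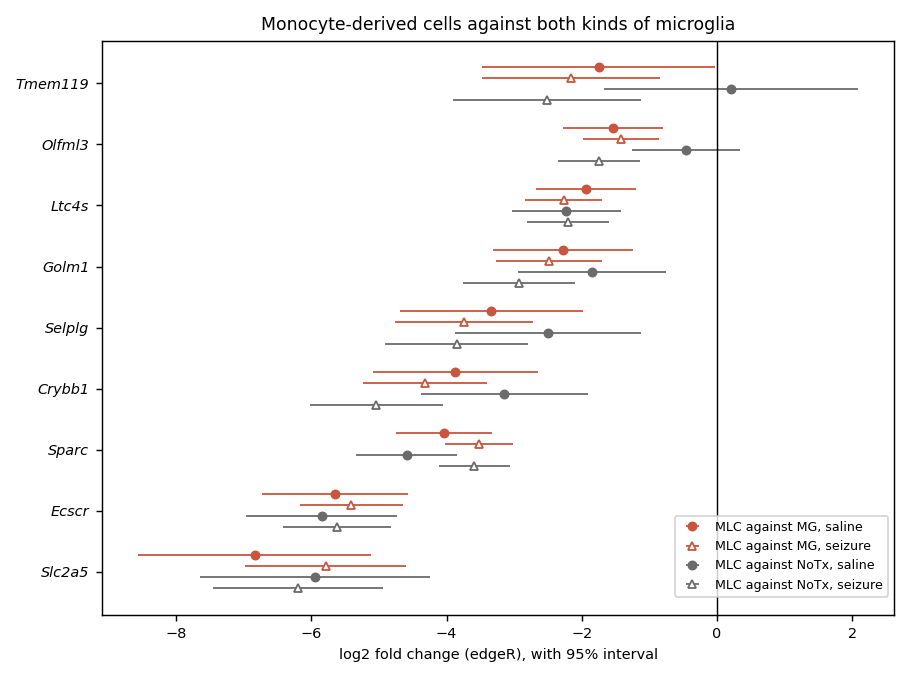
Log2 fold change (x) of each of the 9 genes (y) in MLC against MG (red) and against NoTx (grey), after saline (filled circles) and after seizure (open triangles), with bars of the 95% interval from the SE of edgeR. All values against MG are below 0, from -1.42 for Olfml3 to -6.84 for Slc2a5, and those for Tmem119 and Olfml3 against NoTx after saline have bars that cross 0.

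Against microglia that had never been transplanted, 5 of the 9 genes were lower in MLC after saline (0.811% of all genes tested): Sparc (-4.59, SE 0.38), Slc2a5 (-5.95, SE 0.87), Ecscr (-5.85, SE 0.57), Crybb1 (-3.15, SE 0.63) and Ltc4s (-2.23, SE 0.41). The adjusted p values ran from 1.8e-07 for Sparc to 0.009 for Crybb1. Golm1 had a value of -1.85 (SE 0.56, adjusted p = 0.15) and passed in 4 of 18 other fits, and Selplg passed in 7 of 18. In all, MLC lay below NoTx without overlap for 7 of 9 genes (18% of all genes), the exceptions being Tmem119 and Olfml3. The count fell to 3 without NoTx replicate 2, where Crybb1 had an adjusted p of 0.072 and Ltc4s of 0.11. Crybb1 was lost also without MLC replicate 2 (0.074) or 3 (0.073).

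After seizure all 9 genes were lower in MLC than in NoTx (3.61% of all genes), and 8 of 9 had no overlap (5.1% of all genes). The sizes ran from -1.75 for Olfml3 (SE 0.31, adjusted p = 8e-04) and -2.20 for Ltc4s (SE 0.31, adjusted p = 5.6e-05) to -6.20 for Slc2a5 (SE 0.64, adjusted p = 1e-06). With the GC offset Ltc4s did not pass (-1.49, adjusted p = 0.074). The comparisons with MG and with NoTx share the MLC libraries and are not independent of each other.

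Markers of blood cells differed between NoTx and MLC in the same comparisons. The 16 genes of blood monocytes and dendritic cells summed to 200 to 1199 CPM in NoTx after saline, against 12.9 to 17.6 CPM in MLC and 22.2 to 31 CPM in MG. After seizure they summed to 19.9 to 151 CPM, 3.38 to 16.8 CPM and 1.25 to 59.1 CPM. The 12 neutrophil genes summed to 396 to 1718 CPM in NoTx, 163 to 470 CPM in MLC and 444 to 780 CPM in MG after saline, and to 101 to 1423 CPM, 22.7 to 141 CPM and 126 to 362 CPM after seizure. Of 8 tested neutrophil genes, 4 were lower in MLC than in NoTx after saline, S100a8 (-7.32), S100a9 (-8.57), Ngp (-8.03) and Camp (-9.97), and 6 after seizure, those 4 with Ltf and Csf3r, at -5.80 to -2.61. In MG against NoTx after saline, the same 4 genes had values from -8.56 to -7.31 and Csf3r had 1.73, none past the limit. The list sum in MG after saline thus did not follow those 4 genes. Of the defining macrophage markers, Itgam (-1.76, SE 0.32, adjusted p = 0.0014) and Csf1r (-2.11, SE 0.60, adjusted p = 0.039) were also lower in MLC than in NoTx after seizure. The part of these markers in the comparisons with NoTx was not tested.

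The 2 kinds of microglia were compared next, to see whether transplantation left the 9 genes at the level of NoTx. None of the 9 passed after saline (0 of 9, where 0.053% of all genes passed in either direction). In edgeR 1 had an unadjusted p under 0.05, beside 641 of the 18867 genes. In DESeq2 0 passed, and in limma-voom the same 1 gene did. That gene was Olfml3, with 2881 ± 900 CPM (SD, n = 3) in MG and 1359 ± 115 CPM (n = 2) in NoTx, a log2 fold change of 1.08 (SE 0.43, adjusted p = 1, or 0.032 in limma-voom). Tmem119 had 1.95 (SE 1.02, adjusted p = 1), with a 95% interval from -0.05 to 3.96, and Sparc had -0.55 (SE 0.35, adjusted p = 1). MG lay above both NoTx libraries for 6 of the 9 genes, Tmem119, Olfml3, Selplg, Slc2a5, Golm1 and Crybb1 (18.5% of all genes), and the other 3 overlapped. With 2 NoTx libraries these intervals are wide.

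After seizure none of the 9 passed between MG and NoTx (0 of 9, 0.0742% of all genes), with 0 at an unadjusted p under 0.05 and 0 in DESeq2 and limma-voom, and all 9 overlapped. The log2 fold changes lay between -0.72 for Crybb1 (SE 0.52, adjusted p = 0.73) and 0.07 for Ltc4s (SE 0.35, adjusted p = 1). For Sparc, the least variable of them, the interval ran from -0.65 to 0.50.

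The effect of seizure, or of the batch that goes with it, was not resolved for any of the 9 genes. In MG none passed (0 of 9, 0.0371% of all genes), with 1 at an unadjusted p under 0.05, beside 2226 of the 18867 genes. That gene was Olfml3 (-0.98, SE 0.34, adjusted p = 0.4). Tmem119 had a value of -1.41 (SE 0.79, adjusted p = 0.48) and Ltc4s of 0.51 (SE 0.35, adjusted p = 0.6). The seizure libraries lay below those after saline for 4 of the 9 genes, Tmem119, Selplg, Slc2a5 and Golm1 (11.9% of all genes).

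In MLC none of the 9 passed between seizure and saline (0 of 9, 0% of all genes), but 5 had an unadjusted p under 0.05, beside 2236 of the 18867 genes. They were Tmem119 (-1.82, SE 0.71), Crybb1 (-1.09, SE 0.47), Golm1 (-0.97, SE 0.42) and Olfml3 (-0.86, SE 0.31), all with a lower mean after seizure, and Sparc (0.60, SE 0.28) with a higher one. Their adjusted p values were 0.34, 0.37, 0.38, 0.34 and 0.4. Sparc had 204 ± 8.29 CPM (SD, n = 3) after saline and 309 ± 121 CPM (n = 6) after seizure, without overlap, as for 1.23% of all genes with higher seizure libraries. Olfml3 did not overlap either, in the other direction, with at most 662 CPM after seizure and at least 666 CPM after saline. In NoTx none passed (0 of 9, 0.106% of all genes), with 0 at an unadjusted p under 0.05, and the values ran from -0.40 for Sparc (SE 0.35, adjusted p = 1) to 0.90 for Tmem119 (SE 0.98, adjusted p = 1). Crybb1 in NoTx did not overlap, with 147 to 312 CPM after seizure (n = 3) and 126 to 135 CPM after saline (n = 2). The share of all genes without overlap is not given for the directions of Olfml3 in MLC and Crybb1 in NoTx. These separations therefore have no background here. DESeq2 and limma-voom called 0 of the 9 in each of these 3 comparisons of seizure with saline.

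Whether the gap between MLC and MG differed between seizure and saline was tested directly. None of the 9 genes passed (0 of 9, 0% of all genes, and 0 at an unadjusted p under 0.05, in DESeq2 and in limma-voom). The differences on the log2 scale ran from -0.45 for Crybb1 (SE 0.71, interval -1.84 to 0.94) to 1.06 for Slc2a5 (SE 0.88, interval -0.67 to 2.79).

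The spread within groups divided the 9 genes. The pooled SD of log2 CPM within groups was 1.30 for Tmem119, 1.08 for Slc2a5, 0.98 for Selplg, 0.94 for Crybb1 and 0.72 for Golm1, beside a median of 0.70 over the 6856 genes of at least 4 in average log2 CPM. It was 0.61 for Ecscr, 0.48 for Olfml3 and for Ltc4s, and 0.36 for Sparc. Within groups, Tmem119, Selplg, Golm1 and Slc2a5 tended to be high or low in the same libraries: over the 21 libraries the deviations from the group mean correlated at 0.94 between Selplg and Golm1, 0.91 between Tmem119 and Golm1 and 0.81 between Tmem119 and Slc2a5. Olfml3 followed these 4 genes less closely, at 0.61 to 0.68, and Crybb1 had 0.70 with Selplg and 0.26 with Slc2a5. Sparc, Ecscr and Ltc4s had correlations with Tmem119 of 0.17, -0.11 and -0.47. These correlations are descriptions over libraries that also share depth and sample quality.

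Libraries differed in how genes rich in GC stood against genes poor in GC. This GC trend, the difference in log2 level between the 2 ends, ran from -3.03 in MLC replicate 5 after seizure to 1.75 in MG replicate 3 after saline. Its deviation from the group mean moved with that of Selplg (Pearson r = 0.91, Spearman rho = 0.86), Tmem119 (0.90, 0.95), Golm1 (0.90, 0.88), Olfml3 (0.75, 0.68), Slc2a5 (0.73, 0.86) and Crybb1 (0.69, 0.50). It did so less for Sparc (0.23, 0.18), Ecscr (0.11, -0.05) and Ltc4s (-0.35, -0.40). Without the 2 libraries farthest out, r was 0.94 for Tmem119, 0.82 for Selplg, 0.84 for Golm1 and 0.43 for Crybb1. The members' own GC content did not order them in this way, since Golm1 had 48.4% and Ltc4s 61.0%.

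After seizure the trend ran from -1.14 to 1.03 in the MG libraries and from -3.03 to 0.25 in the MLC libraries. With an offset for GC content in the fit, 7 of the 9 genes passed as lower in MLC than in MG after saline, where Ltc4s (-1.70, adjusted p = 0.29) and Tmem119 (-1.51, adjusted p = 0.41) did not. After seizure 9 of 9 passed. The log2 fold changes after seizure were then -5.50 for Slc2a5, -5.24 for Ecscr, -3.86 for Crybb1, -3.63 for Selplg, -3.26 for Sparc, -2.47 for Golm1, -1.65 for Tmem119 (adjusted p = 0.033), -1.63 for Ltc4s (adjusted p = 0.035) and -1.13 for Olfml3. Ltc4s moved most, from -2.27 without the offset.

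**Figure D3:**
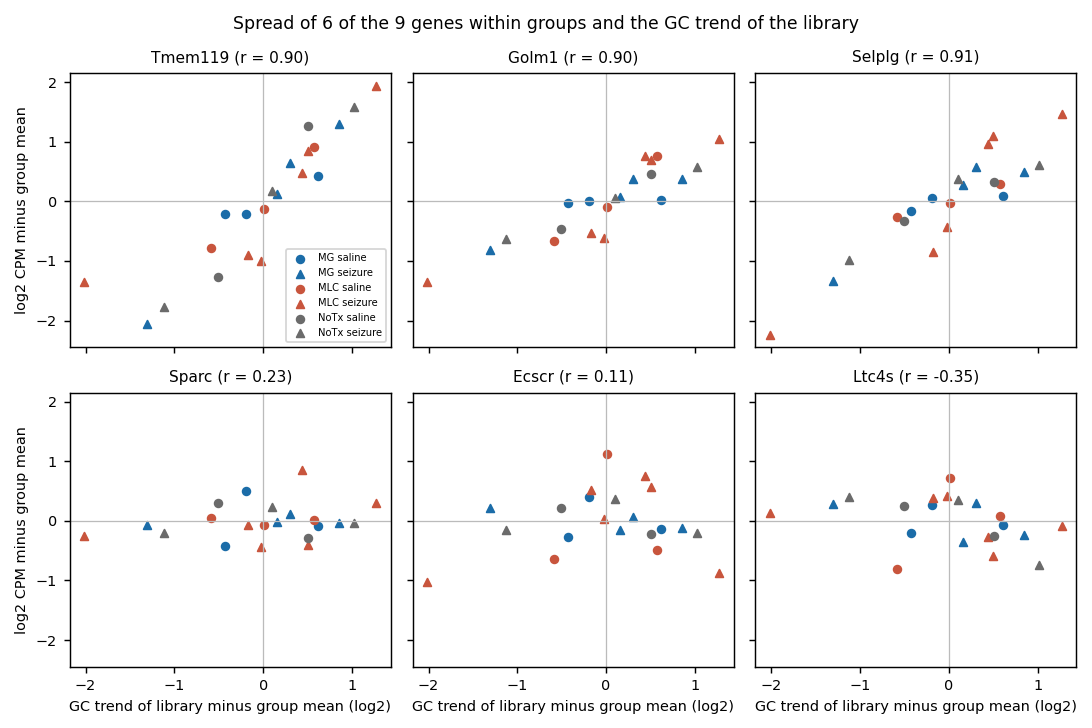
Deviation of log2 CPM from the group mean (y) against the deviation of the library's GC trend from its group mean (x, log2) for 6 of the 9 genes, 1 point per library, coloured by cell group with circles for saline and triangles for seizure. Tmem119, Golm1 and Selplg follow the trend with r of 0.90 to 0.91, whereas Sparc, Ecscr and Ltc4s do not rise with it.

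Genes whose log2 CPM was most like that of each member over the 21 libraries were named among genes of at least 4 in average log2 CPM. The gene nearest to Tmem119 was Fermt3, an integrin activator (Pearson r = 0.989), followed by Rps6ka1 (0.970) and Csf1r (0.969). Nearest to Ecscr were Hspb3 (0.982) and P2ry12 (0.981), to Sparc Sgce (0.976), to Slc2a5 Atp8a2 (0.984) and to Ltc4s Cst3 (0.975). For Olfml3 it was Ckb (0.954), for Selplg Scamp2 (0.964), for Golm1 P2ry13 (0.958) and for Crybb1 Asph (0.956). These likenesses hold differences between the groups as well as the spread within groups. Csf1r, like Tmem119, did not pass in MLC against MG, with -1.06 (SE 0.73, adjusted p = 0.98) after saline and -1.46 (SE 0.57, adjusted p = 0.12) after seizure. Within groups both moved with the GC trend of the library (Pearson r = 0.87 for Csf1r and 0.90 for Tmem119).

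The other genes of each member's pathway were read from lists. For Slc2a5, 13 tested genes of hexose transport and fructose handling were examined. None was lower or higher in MLC than in MG after saline, and 1, Khk, was lower after seizure. Khk encodes ketohexokinase, the first enzyme of fructose breakdown. Its level was 93.5 ± 22.5 CPM (SD, n = 3) in MG and 29.3 ± 9.94 CPM (n = 3) in MLC after saline (-1.67, SE 0.48, adjusted p = 0.092), and 71.4 ± 22.4 CPM (n = 4) and 12.6 ± 7.48 CPM (n = 6) after seizure (-2.51, SE 0.37, adjusted p = 0.00011). The median of the 13 was -0.43 after saline and -0.26 after seizure, far above the values of Slc2a5.

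For Selplg, 14 tested genes of selectins and of the sugar chains that selectins bind were examined, and 2 were lower in MLC than in MG under both conditions. They were Gcnt1, which starts the core 2 branch of O-glycans, and St3gal6, a sialyltransferase. Gcnt1 fell by 1.10 on the log2 scale (SE 0.28, adjusted p = 0.044) after saline and fell by 1.37 (SE 0.22, adjusted p = 0.00022) after seizure, and St3gal6 fell by 1.15 (SE 0.29, adjusted p = 0.04) and fell by 1.03 (SE 0.22, adjusted p = 0.0058). The saline calls were lost in 12 of 19 other fits for Gcnt1, among them without any 1 of the 6 libraries (adjusted p 0.053 to 0.28), and in 9 of 19 for St3gal6, among them without any 1 library but MLC replicate 1 (0.08 to 0.29). The median log2 fold change of the 14 was 0.48 after saline and 0.94 after seizure. The summed level of the 16 genes of the list was nevertheless lower in MLC (913 to 1051 CPM after saline, 892 to 1388 CPM after seizure) than in MG (1467 to 1848 CPM and 1539 to 1757 CPM), without overlap.

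For Ltc4s, 14 tested genes of leukotriene synthesis and reception were examined. After saline 1 was higher in MLC than in MG and none lower, and after seizure 3 were higher (Mgst1, Dpep2 and Cysltr2) and 1, Alox5ap, was lower. Mgst1, a microsomal glutathione transferase of the same enzyme family as Ltc4s, had 0.537 ± 0.249 CPM (SD, n = 3) in MG and 128 ± 37.9 CPM (n = 3) in MLC after saline (7.87, SE 1.18, adjusted p = 0.00026). Alox5ap, which presents arachidonic acid to 5-lipoxygenase, fell by 1.13 on the log2 scale after seizure (SE 0.22, adjusted p = 0.0019) and had a value of -0.92 (SE 0.28, adjusted p = 0.15) after saline. The median of the 14 was 0.15 after saline and -0.70 after seizure.

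**Figure D4:**
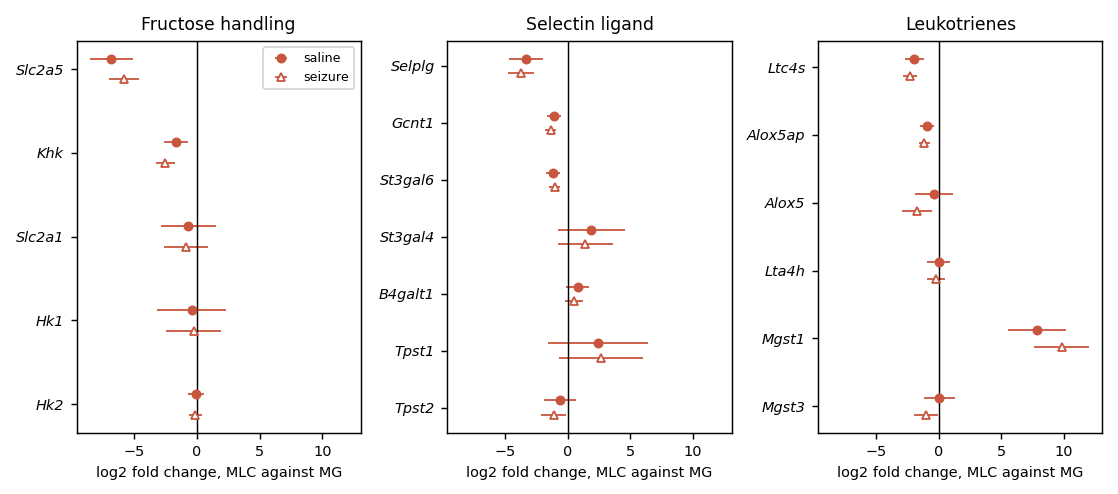
Log2 fold change of MLC against MG (x, with bars of the 95% interval from the SE of edgeR) after saline (filled circles) and seizure (open triangles) for Slc2a5, Selplg and Ltc4s and for partners from their pathway lists. Khk, Gcnt1, St3gal6 and Alox5ap lie between 0 and the value of the member above them, and Mgst1 stands at 7.87 and 9.84.

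Family relatives of the members, such as other crystallins and SPARC-like proteins, were also read. Of 9 tested relatives, none passed in MLC against MG after saline and 1, the crystallin Cryba4, was lower after seizure (-1.14, SE 0.33, adjusted p = 0.042), a call lost in 19 of 23 other fits, among them those without any 1 of MG replicates 2 to 4 or MLC replicates 2 to 6 (adjusted p 0.051 to 0.12). Crybb1 itself had -4.32 there.

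Of 33 other genes of the homeostatic signature, 9 were lower and 1 was higher in MLC than in MG after saline, and 18 were lower and 1 higher after seizure, with medians of -1.18 and -1.41 beside -3.34 and -3.52 for the 9 genes. P2ry12, the ADP receptor that steers microglial processes, stood at 15.1% of the MG mean after saline and 14.2% after seizure, between Golm1 and Selplg. The gene that was higher under both conditions was Pmepa1, a target and inhibitor of TGF-beta signalling, with 35.6 ± 13 CPM (SD, n = 3) in MG and 114 ± 27 CPM (n = 3) in MLC after saline. Pmepa1 had a log2 fold change of 1.68 (SE 0.40, adjusted p = 0.029) after saline and 1.35 (SE 0.32, adjusted p = 0.013) after seizure. The saline call was lost without MG replicate 1 (0.15) or 3 (0.16) or MLC replicate 1 (0.13) or 2 (0.07). Sall1, a transcription factor of microglial identity, stood at 0.436% of the MG mean in MLC after saline and 1.93% after seizure, next to Slc2a5 at 0.871% and 1.82%. Of 19 tested genes of TGF-beta signalling, 1 was higher and none lower after saline, and 3 were higher and 1 lower after seizure.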

How the data were processed

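RNA was isolated from FACS-sorted brain cells with a column kit and made into libraries with a kit for low input that amplifies by PCR, per the labels' protocols. No molecular identifiers are named, so read counts are not independent molecules. The authors deposited 1 table of estimated counts per gene for 21 libraries. The submitters' processing notes name Trim Galore 0.6.7, cutadapt 3.4, STAR 2.7.10a, featureCounts with Subread 2.4.5, DESeq2 1.36.0 and the build GRCm39. The tool that made fractional counts and the strand setting are not given in the sources used here. Of the values above 0 in a library, 28.2% to 45.4% were not whole.

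Estimated counts were rounded to whole counts. Genes passing the edgeR filter by group (18867 of 57180) entered 1 quasi-likelihood fit with 6 group means (TMM scaling, robust), and 10 comparisons were drawn from it. Benjamini-Hochberg adjustment of p values ran over all genes tested in a comparison, with 0.05 as the limit. SE is the absolute log2 fold change over the square root of F, and 95% intervals assume a normal error. Adjusted p values come from edgeR unless another tool is named. CPM per kb used the longest transcript in GENCODE M21. R 4.3.3, edgeR 4.0.16, limma 3.58.1 and DESeq2 1.42.0 were used, and the pipeline was tested on simulated counts. Where the labels do not state separate animals, p values measure the spread between samples.

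Other fits changed the tool (DESeq2, or limma-voom weighting libraries by quality), the scaling (RLE), the filter (none), the samples (only those compared, or without the 3 least complex libraries), or the terms (a block for replicate number or for the code in library names, and an offset for GC content with and without the replicate block). Counts were also thinned to the smallest total. The 2 MLC libraries with 11b in their names were either dropped or added to their namesake. Finally, every library was left out once. The members and the lists were chosen with earlier results of these data known. All members are named, and other genes are named from the lists of the same pathway, family or cell type or from the likeness measure.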

Additional observations from a re-analysis of the deposited data

How the results depend on the processing

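Sparc, Slc2a5 and Ecscr passed as lower in MLC in every other fit of all 4 comparisons of MLC with MG or NoTx. Across 1854 values of the 9 genes in other fits and with libraries left out, 81 had another sign, and 0 of these had passed the limit in either fit. The number of genes passing in MLC against MG was 6 to 9 over the other fits after saline and 7 to 9 after seizure, and against NoTx 5 to 7 and 8 to 9. With each library left out in turn it was 4 to 8, 8 to 9, 3 to 5 and 8 to 9. Limma-voom gave 1 gene, Olfml3, in MG against NoTx after saline in place of 0.

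The correlation of deviations between libraries of the same replicate number and treatment ran from -0.28 to 0.44. After saline it ran from -0.28 to -0.08 for replicate 1 and from 0.27 to 0.44 for replicates 2 and 3. Equal numbers after seizure do not always carry equal library codes, so these values cannot show pairing by code there. Whether the libraries are paired is not settled by them. With the replicate number as a block, 8 genes passed in MLC against MG under both conditions, and 7 and 8 against NoTx. Over all genes, the counts that passed in MLC against MG were 299 after saline (273 to 1683 in other fits, 181 to 227 with a library left out) and 1109 after seizure (502 to 2447 and 776 to 1117), and against NoTx 237 (207 to 1542 and 79 to 150) and 1162 (606 to 2748 and 712 to 1193). In MG against NoTx they were 10 (2 to 420 and 1 to 17) and 14 (0 to 627 and 5 to 38). In seizure against saline they were 7 in MG (0 to 274 and 0 to 13), 0 in MLC (0 to 130 and 0 to 1) and 20 in NoTx (0 to 218 and 4 to 19), and for the difference between conditions 0 (0 to 143 and 0 to 0). RLE scaling moved the median log2 change of all genes to 0.12 in MLC against MG after seizure, 0.16 and 0.13 in MLC against NoTx and -0.12 in MG after seizure against saline. It brought the share of calls that were higher in MLC against MG after seizure from 42.7% to 53.3% (62% in DESeq2, where MLC against NoTx had 52.6% in place of 35.4% after saline, and 64.7% in place of 41.4% after seizure), and no member of MLC against MG changed side with RLE.

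Signs turned for values near 0. Tmem119 in MLC against NoTx after saline was -0.18 with the GC-content offset and -0.20 with that offset and the replicate block, and ran from -0.57 to 1.96 with a library left out. Ltc4s in MG against NoTx after seizure was -0.15 in limma-voom, -0.02 with the replicate block, -0.06 with the library code block, -0.17 with the GC-content offset and replicate block and -0.28 without the 3 least complex libraries, and ran from -0.22 to 0.26 with a library left out. With a library left out, Tmem119 in seizure against saline in NoTx ran from -0.14 to 2.66, and the difference between conditions for Crybb1 from -0.76 to 0.14. The cause was not tested. The library code block was not run for seizure against saline, where codes and treatments coincide. Depth limits the lowest MLC values of Crybb1, Slc2a5 and Ecscr, and 2 NoTx libraries limit the saline comparisons.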
